A study of Homo sapiens with 2 samples.

Results

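Among the barcodes of a single-cell library of blood-forming cells, 809 carried gene UMIs (unique molecular identifiers, each one captured RNA molecule) like those of cells but were given no sample hashtag. These hashtag-negative barcodes were compared with the 7550 cells that had been given 1 of the 4 hashtags. Both sets were held to at most 36000 gene UMIs, 6000 detected genes and 18% of UMIs from the mitochondrial genome. Out of 10836 barcodes in the library the calls named 1009 Negative, and 80.2% of these passed the limits, against 88.9% of the 8488 barcodes called for 1 hashtag. Barcodes called as doublets were left out. Negative barcodes were thus 9.68% of the 8359 compared (exact Clopper-Pearson 95% interval 9.05 to 10.3%, counting error only).

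The cells were derived from IPS11, a line of human induced pluripotent stem cells, and had been taken to day 5 of the endothelial-to-hematopoietic transition (EHT), the step in which endothelial-like cells give rise to blood progenitors. They had been cultured on wells that were left uncoated or coated with VCAM1, with DLL4, or with DLL4 and VCAM1 together. VCAM1 is an adhesion protein of the vessel wall and DLL4 a Notch ligand. The nonadherent cells of 3 wells per coating were pooled and stained with 1 hashtag antibody per coating, and the pools were then mixed at equal cell numbers in 1 library. The link between hashtag and coating is not given in the sources used here, so the hashtags are named by number and no coating is compared. With wells pooled and 1 library there are no replicates: no test was made, and intervals cover counting error only. The spread among the 4 hashtags, which holds any effect of the coatings, is given beside the values the results turn on.

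Hashtag antibodies of this kind are pairs of antibodies that carry an oligonucleotide and bind proteins present on nearly all human cells. They recognise CD298, the beta-3 subunit of the sodium-potassium pump encoded by ATP1B3, and beta-2 microglobulin, encoded by B2M. Beta-2 microglobulin reaches the surface as the light chain of HLA class I, whose heavy chains, among them those encoded by HLA-B, HLA-C and HLA-E, present peptides to T cells. A cell is called for a hashtag when the count of that tag exceeds the background left by free antibody, so the call reads surface protein, cell surface area, staining and background together. ATP1B3 lies on chromosome 3 (hg19, 141594966 to 141645391) and B2M on chromosome 15 (45003556 to 45011049). HLA-B (31321649 to 31334844), HLA-C (31236526 to 31239907) and HLA-E (30457286 to 30461971) lie in the major histocompatibility complex on chromosome 6.

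The negative barcodes were not empty of hashtag. They held a median of 788 hashtag UMIs over the 4 tags, with a range of 0 to 1069, and 5 barcodes had none. Called cells held a median of 1253, from 481 to 69843. Background was high: a tag that a called cell had not been given still had a median of 105 UMIs for hashtag 0252, 175 for 0253, 249 for 0254 and 262 for 0255. The smallest counts that had been called for these tags were 202, 299, 380 and 418, only 1.92, 1.71, 1.53 and 1.595 times those backgrounds. The highest tag of a negative barcode lay at a median of 0.861 to 0.876 of the smallest called count, depending on the tag, and was 0252 in 120 barcodes, 0253 in 179, 0254 in 197 and 0255 in 313.

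The 4 tags of a barcode were also compared with one another, as a description, since these counts set the call. When each tag was divided by its background, the highest tag of negative barcodes matched in depth to called cells was at a median of 1.41 and the next at 0.926. The highest was at least 1.5 times the next in 381 of 776 negative barcodes (49.1%, 45.5 to 52.7%), against 2957 of 3104 matched called cells (95.3%, 94.5 to 96.0%). How often the highest of 4 background tags would pass that ratio was not computed, so the share in negative barcodes is not read as a sign of staining. The other 3 tags of the negative barcodes had a median of 0.834 of background. The value of 1 in called cells follows from how background was defined, and the highest tag was dropped in negative barcodes. These 2 values are therefore not compared. With no tag dropped, tags 0252 to 0255 had medians of 91, 156, 232 and 252 UMIs in the matched negative barcodes. In matched called cells given another tag the medians were 105, 174, 249 and 264. Doublet scoring on the genes marked 7 of the negative barcodes and 73 of the called cells, which were kept. The negative barcodes were shallower, with medians of 15601 gene UMIs and 3849 genes against 18318.5 and 4197, and their mitochondrial share was 14.1% against 13.1%.

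The share of negative barcodes differed widely between marker classes. Each barcode was placed in the class whose marker genes had the highest mean z-score, if this reached 0.5. A class is a range of a score and not a cell type: from 22 barcodes in the stromal class to 306 in the progenitor class lay within 0.1 of a boundary. Barcodes led by macrophage markers (C1QA, C1QB, C1QC, SPP1 and CD14) were negative in 9 of 833 cases, or 1.08% (0.495 to 2.04%). At their total UMIs, 12.6% would be negative if depth alone set the share. The next lowest shares were those of the neutrophil class (MPO, AZU1, ELANE, PRTN3 and CTSG) with 4.22% (3.02 to 5.72%), the megakaryocyte class with 4.86% (2.95 to 7.48%) and the stromal class with 5.99% (2.91 to 10.7%).

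The highest shares were found where markers of mast cells and basophils (HDC, CPA3, MS4A2 and TPSAB1) led, with 96 of 447 barcodes negative (21.5%, 17.8 to 25.6%). The progenitor class (CD34, GATA2, CYTL1, SPINK2 and MYB) followed with 231 of 1318 (17.5%, 15.5 to 19.7%), then the eosinophil class (EPX, PRG2, PRG3 and CLC) with 67 of 388 (17.3%, 13.6 to 21.4%). These 3 classes do not separate beyond their counting intervals, and their shares were 2.18, 1.98 and 1.74 times those given by depth. The endothelial class had 13.4% (9.38 to 18.2%), the erythroid class 10.9% (8.48 to 13.7%) and barcodes of no class 7.89% (6.96 to 8.90%). Some class names rest on few molecules. In the mast and basophil class the negative barcodes held a median of 3.56 UMIs per 10000 of its own markers and 7.08 of progenitor markers, and in the endothelial class 1.59 and 6.63. In the megakaryocyte class the 19 negative barcodes held 5.56 of its own markers against 17.9 in called cells, and 6.35 of progenitor markers. In the stromal class the 10 negative barcodes held 2.58 of its own markers against 45.6 in called cells, and 2.89 of progenitor markers.

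**Figure D1:**
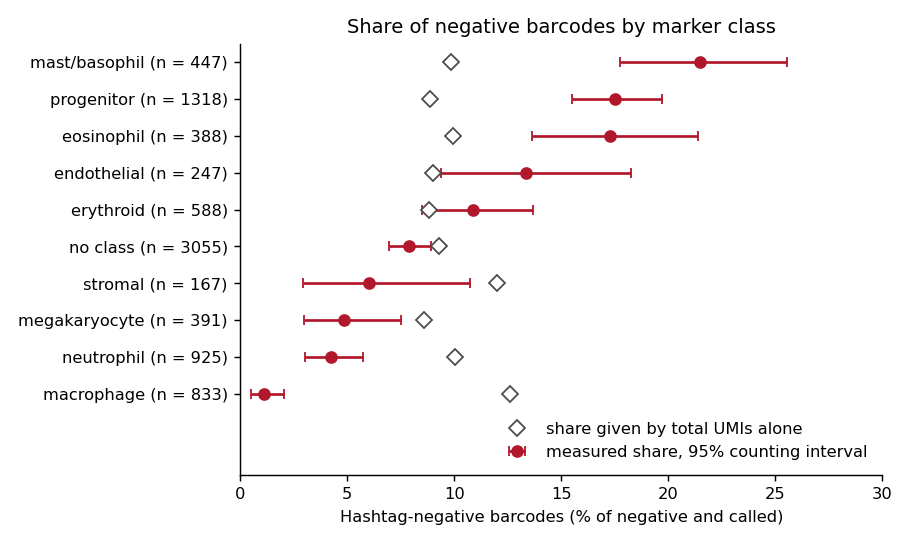
Share of hashtag-negative barcodes in each marker class. The horizontal axis is the percent of negative and called barcodes, filled points are the measured shares with exact 95% counting intervals, and open diamonds are the shares that total UMIs alone would give. The macrophage class, at 1.08%, lies below its diamond at 12.6%, and the mast and basophil class, at 21.5%, lies above its diamond.

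Classes also differed in how much hashtag they held. The macrophage class had a median of 2310 hashtag UMIs and its highest tag stood at 5.56 times the smallest called count, whereas the eosinophil class had 1014 and 1.296 and the mast and basophil class 1038 and 1.28. In CPM, UMIs per 1000000 gene UMIs of a group, the summed level of HLA-B, HLA-C and HLA-E was 846 in the macrophage class, 250.4 in the neutrophil class, 145 in the progenitor class and 99.5 in the eosinophil class. Across the 10 classes, a description over points from 1 library, this sum ran with the median of the highest tag (Pearson r 0.93, Spearman rho 0.90) and against the percent negative (r -0.64, rho -0.81). B2M ran with the highest tag at r 0.83 (rho 0.42) and with the percent negative at r -0.48 (rho -0.26), and ATP1B3 at r -0.77 (rho -0.58) and r 0.42 (rho 0.35). ACTB, the gene of cytoplasmic beta-actin and not an antibody target, ran against the percent negative as closely as the HLA genes (r -0.84, rho -0.87), so the ordering of the classes is not particular to HLA.

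For the comparison gene by gene, each negative barcode was matched to 1 cell of each hashtag with a total within 10%. This kept 776 negative barcodes and 3104 called cells, with medians of 15885.5 and 15871 gene UMIs. The 33 left out had a median of 1907. UMIs were summed by group and given as CPM. A gene was counted as higher or lower when its mean over both groups reached 50 CPM, the groups differed by at least 1.3-fold and the negative barcodes lay outside the range of the 4 hashtags. Of 2700 genes at or above 50 CPM, 96 were higher (3.56%) and 121 lower (4.48%) in negative barcodes.

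The genes behind the antibody targets parted from one another. B2M stood at 906 CPM in negative barcodes (889 to 922) and at 1094, 1120, 1160 and 1165 CPM in cells of hashtags 0252, 0253, 0254 and 0255. The negative barcodes were thus below every hashtag, by 1.25-fold (log2 ratio -0.33, -0.35 to -0.30), a difference short of the fold of 1.3. ATP1B3 stood at 165 CPM in negative barcodes (158 to 173) and at 165, 164, 155 and 156 CPM in the 4 hashtags, a log2 ratio of 0.05 (-0.02 to 0.12). No lower ATP1B3 level was seen in negative barcodes in this matching. The counting interval holds no spread between wells or coatings, and the hashtags alone ran from 155 to 165 CPM. At a mitochondrial limit of 10%, with 34 matched negative barcodes, the log2 ratio of ATP1B3 was -0.29.

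Genes of HLA class I heavy chains stood below the hashtags. HLA-B was at 40.8 CPM in negative barcodes and at 171.6, 169.6, 132.0 and 124.7 CPM in hashtags 0252 to 0255, a log2 ratio of -1.87 (-2.01 to -1.75). HLA-E was at 63.5 CPM against 93.1, 87.6, 78.8 and 70.3 CPM and lay just inside the fold of 1.3 (log2 ratio -0.38). HLA-C, at 27.97 CPM against 59.1 to 63.9 CPM, was also below every hashtag (log2 ratio -1.16) but under the level of 50 CPM that was set for a call. Reads of these heavy chain genes can be shared among them and their near-identical copies, so the split between them is uncertain. The sum of HLA-B, HLA-C and HLA-E was 132 CPM in negative barcodes against 294 CPM in called cells (254 to 327 over the hashtags). Of the genes that load peptides onto class I, 1 of 5 was lower, against 4.48% of all 2700 genes tested. It was PSMB8 of the immunoproteasome, at 32.3 CPM against 59.4 to 86.2 CPM.

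**Figure D2:**
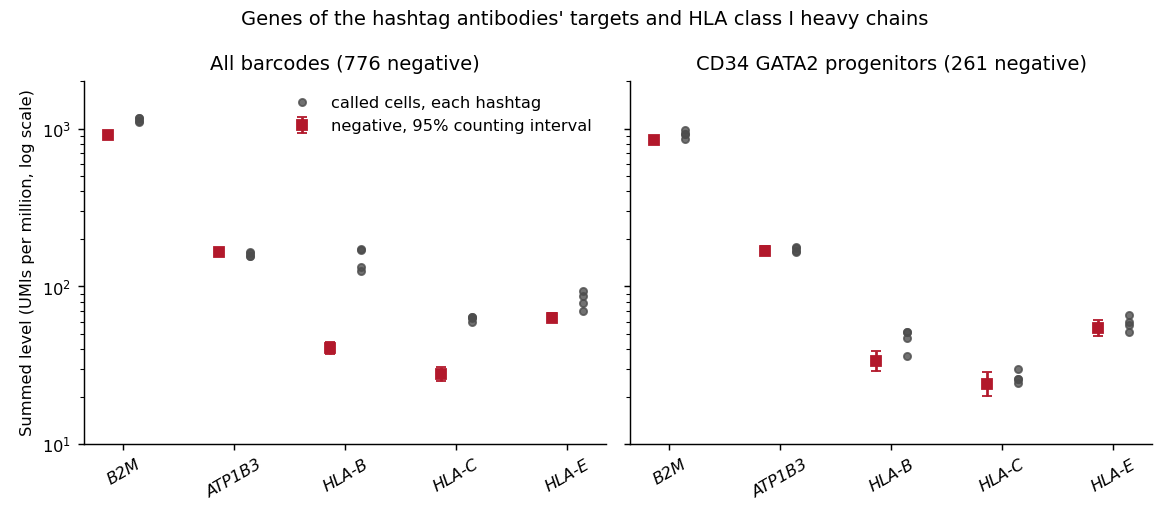
Levels of B2M, ATP1B3, HLA-B, HLA-C and HLA-E, summed per group in CPM on a log axis, over all barcodes (left) and CD34 GATA2 progenitors (right). Squares are negative barcodes with 95% counting intervals and circles are the called cells of each of the 4 hashtags. Over all barcodes B2M, at 906, and HLA-B, at 40.8, lie below all 4 circles and ATP1B3, at 165, lies at their upper edge.

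HLA class II, which presents peptides on macrophages and other antigen-presenting cells and contains no beta-2 microglobulin, was lower still. HLA-DRA was at 19.1 CPM in negative barcodes and at 281, 241, 302 and 332 CPM in the 4 hashtags, a log2 ratio of -3.92 (-4.11 to -3.74). CD74, the invariant chain of class II, was at 163 CPM against 570 to 645.5 CPM (log2 ratio -1.89). All 5 class II genes tested were lower, against 4.48% of all 2700 genes tested. The sum over the 10 listed was 255 CPM against 1499 CPM (1349 to 1682). Macrophage markers moved with the HLA genes: their sum over 5 markers was 157 CPM against 583 CPM (397 to 868), C1QC was at 6.87 CPM against 82.9 to 118 CPM, and both markers above 50 CPM were lower. Stromal markers were at 17.1 CPM against 143 CPM (54.5 to 254). When negative barcodes were matched within class as well as depth, B2M was at 893 CPM against 987 to 1057 CPM (log2 ratio -0.20) and HLA-B at 42.5 CPM against 82.4 to 102 CPM (log2 ratio -1.12). The part of the macrophage and stromal markers in the rest of the difference was not tested.

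Most genes tested from the lists of blood progenitors stood higher in negative barcodes, and SPINK2 did not. GATA2, a transcription factor of stem, progenitor and mast cells, was at 281 CPM against 103, 106, 161 and 134 CPM (log2 ratio 1.16, 1.10 to 1.22). CD34, the surface sialomucin used to define progenitors, was at 180.0 CPM against 122, 102, 110 and 88.5 CPM (log2 ratio 0.77, 0.70 to 0.84). In both genes all 4 hashtags lay below the negative barcodes. The list median of the 8 progenitor regulators tested was 0.46, against 0.03 for all genes tested. Of these 8, 5 were higher and none lower, against 3.56% and 4.48% of all 2700 genes tested. The other 4 were MYB (78.4 against 43.6 to 49.3 CPM), LYL1 (260.5 against 161 to 190 CPM), BCL11A (59.6 against 36.9 to 55.6 CPM) and CYTL1 (231 against 127 to 170 CPM). SPINK2, a protease inhibitor of progenitors that was under 50 CPM and so not tested, was at 34.9 CPM, below all hashtags (38.0 to 74.7 CPM, log2 ratio -0.76, -0.91 to -0.62). Of 3 progenitor surface genes tested, CD34 and ANGPT1, a ligand of the receptor TIE2 made by stem cells, were higher, at 108 CPM against 58.1 to 82.9 CPM for ANGPT1 (log2 ratio 0.60).

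The genes with the largest ratios included effector genes of granulocytes. HDC, which makes histamine and marks mast cells and basophils, led with 119 CPM against 45.2 to 55.8 CPM (log2 ratio 1.299, 1.21 to 1.39). PRG3 and CLC, products of eosinophil granules and crystals, were at 150 against 13.6 to 111 CPM and at 340 against 78.6 to 226 CPM. Those values rested on few barcodes, since 5 negative barcodes held 50.3% of all PRG3 UMIs and 43.97% of all CLC UMIs of the group. In HDC and SOX4 the top 5 barcodes held 4.86% and 4.97%. SOX4, a transcription factor of immature cells, was at 504 CPM against 191, 178, 263 and 320 CPM (log2 ratio 1.08). ARID5B (1.06), STXBP5 (1.06), IGLL1 (0.95), a surrogate light chain of the pre-B cell receptor, and DBN1 (0.93), an actin-binding protein, were also among the first 10.

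Other genes were among the 10 with the largest ratios below the hashtags. S100A9, an alarmin of neutrophils and monocytes, was at 27.5 CPM against 368, 432, 102 and 47.9 CPM (log2 ratio -3.11), so the hashtags themselves differed widely in this gene. LSP1, a leukocyte actin-binding protein, was even across hashtags at 213 to 230.5 CPM and stood at 38.2 CPM in negative barcodes (log2 ratio -2.53). S100B (-2.78), SAMHD1 (-2.59), a nucleotide hydrolase that restricts viruses in myeloid cells, ACY3 (-2.54) and TYMP (-2.35) were the other 4 besides the class II genes and C1QC.

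**Figure D3:**
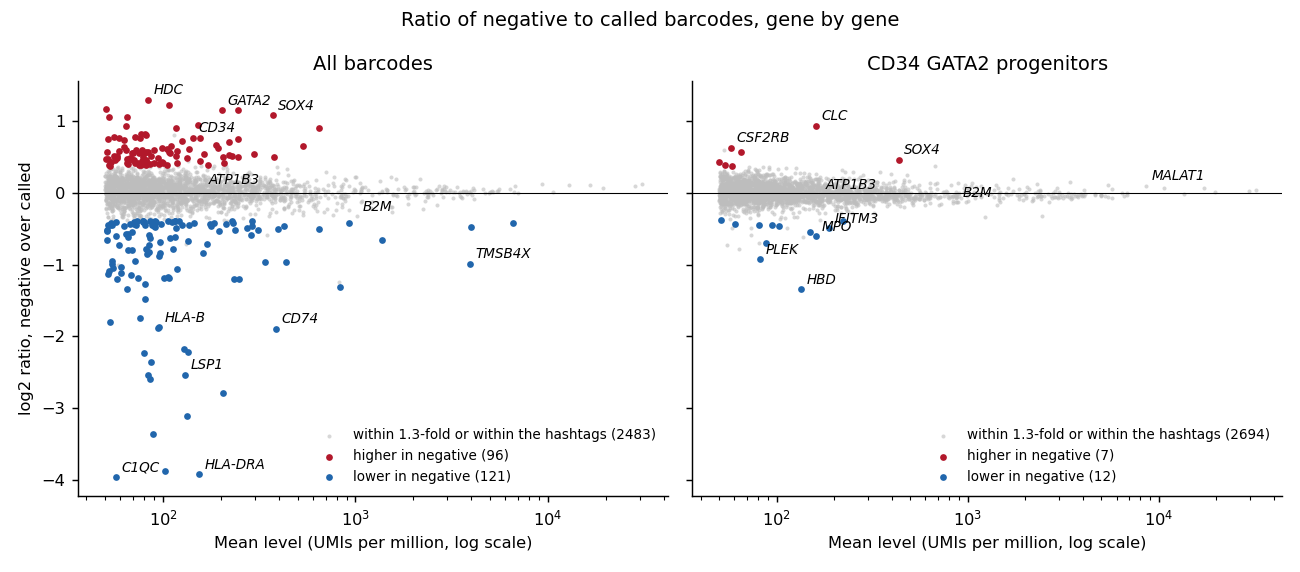
Log2 ratio of negative to called barcodes (vertical axis) against the mean level in CPM (log axis) for every gene at or above 50 CPM, over all barcodes (left) and CD34 GATA2 progenitors (right). Coloured points are genes past 1.3-fold and outside the 4 hashtags: 96 higher and 121 lower on the left, 7 and 12 on the right.

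General surface genes moved in both directions and did not fall as a group. Of 24 tested, 5 were higher and 4 lower, with a median of -0.04. Both are larger shares than the 3.56% and 4.48% of all 2700 genes tested. CD44, the hyaluronan receptor (137 against 82.6 to 113 CPM), CD164, a sialomucin of progenitors (287 against 191 to 217 CPM), the tetraspanins CD82 (90.5 against 29.8 to 77.2 CPM) and CD37 (87.2 against 50.9 to 62.7 CPM), and TFRC, the transferrin receptor (92.8 against 61.2 to 79.2 CPM), were the higher ones. PTPRC, the gene of CD45 (59.2 against 99.7 to 113 CPM), ITGB2, the beta chain of leukocyte integrins (33.7 against 58.2 to 99.6 CPM), CD48 (61.4 against 74.7 to 92.2 CPM) and CD53 (60.9 against 63.6 to 96.6 CPM) were the lower ones. SPN, the gene of CD43, was at 313 CPM, above all hashtags (249 to 280.0 CPM) but within 1.3-fold. None of the 3 sodium-pump genes tested was past the rule. The sum over the 8 listed was 549.6 CPM, above all hashtags (465 to 509.7 CPM). FXYD5, 1 of the 8, was at 307 CPM against 237 to 261 CPM, while ATP1B3 stood at the upper edge of the hashtags. The sum is therefore not read as a rise of the pump subunit that the antibody binds.

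RNA gives no direct measure of cell size, and the lists that go with size and growth did not move together. Of all 2700 genes tested 3.56% were higher and 4.48% lower, and 1 gene called of 18 or of 27 is near these shares. None of 79 ribosomal protein genes was past the rule, and the sum over the 84 listed was 222057 CPM, inside the hashtags (215964 to 222998 CPM). Of 18 genes of growth and ribosome making 1 was higher, MYCN (70.7 against 30.6 to 52.4 CPM), with a list median of 0.14. Of 18 genes of actin and cell shape 6 were lower and none higher. TMSB4X, thymosin beta-4, which binds actin monomers, was at 2643 CPM against 4563, 5559, 5044 and 5776 CPM (log2 ratio -0.99), ACTB at 3348 CPM against 4399.9 to 4853 CPM (-0.47) and VIM, the intermediate filament vimentin, at 230 CPM against 427 to 490.5 CPM (-0.96). None of 18 S phase genes and 1 of 27 G2 and M phase genes, UBE2C (149.7 against 181 to 218 CPM), was past the rule. The G2 and M phase list was nevertheless shifted down: 19 of the 27 lay below all hashtags, against 700 of all 2700 genes tested, with a list median of -0.15 and a sum over the 39 listed of 4553 CPM against 4685 to 5318 CPM. None of the 13 mitochondrial genes was past the rule, but 8 lay above all hashtags, against 1011 of the 2700, and their sum was 139601 CPM against 129482 to 134342 CPM. In progenitors 9 of the 13 did so, against 604 of 2713 genes, with a sum of 141712 CPM against 133061 to 141156 CPM. The part of this mitochondrial shift in the other results was not tested. Of 4 nuclear RNAs tested, KCNQ1OT1 was higher (273 against 147 to 181 CPM) and NEAT1 lower (356 against 436 to 549 CPM).

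Of the remaining lists, 3 of 8 interferon response genes were lower, IFI16 (-1.18), BST2 (-0.61) and PSME2 (-0.49). Within 1.3-fold, IFITM2 (772 against 588 to 676 CPM) and LY6E (363 against 300 to 354 CPM) lay above all hashtags. IFITM3 (152 against 164 to 216 CPM) and PSME1 (175 against 180 to 244 CPM) lay below them, also within 1.3-fold. Of the 8, 5 lay below and 2 above all hashtags, against 700 and 1011 of all 2700 genes tested. None of 4 globins was called, and 1 of 7 stress and early response genes, JUNB, was lower (-0.57). Of all 2700 genes tested 3.56% were higher and 4.48% lower, so 1 gene called in a list this short says little. The matching within marker class kept 576 negative barcodes, and in it 44 of 2708 genes were higher (1.62%) and 51 lower (1.88%). GATA2 (0.68), HDC (0.66), SOX4 (0.70) and MYB (0.46) were among the higher, and HLA-B (-1.12), LSP1 (-2.02), S100B (-2.06), TMSB4X (-0.60) and VIM (-0.53) among the lower. In that matching SPP1 was higher, but 5 barcodes held 93.1% of its UMIs. LTB, a lymphotoxin subunit, was lower at 47.9 CPM against 92.1, 104, 234 and 269 CPM, PLAC8 at 36.7 CPM against 86.1 to 118 CPM, and SPINK2, 1 of the progenitor regulators, at 34.5 CPM against 62.4 to 100.5 CPM (log2 ratio -1.27). Over all barcodes and in that matching SPINK2 thus stood apart from CD34, GATA2 and MYB in direction. These genes are markers of the progenitor class used in that matching, so their levels there are description only.

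The question was then put to progenitors alone, defined by at least 2 UMIs of CD34 and of GATA2. They made up 363 of the 776 matched negative barcodes (46.8%, 43.2 to 50.4%) and 592 of the 3104 matched called cells (19.1%, 17.7 to 20.5%), with 19.8%, 18.6%, 21.0% and 16.9% in the 4 hashtags. Without matching the shares were 44.9% and 23.7%. After every barcode was thinned to 5000 UMIs, 253 of 781 negative barcodes (32.4%) and 998 of 7482 called cells (13.3%) still had a UMI of each gene. In called cells of the macrophage class the thinned share was 0.619%, at a median of 13293 UMIs over that class. CD34 and GATA2 are markers of the competing progenitor class, so the class rule itself keeps this share low. It is therefore no independent measure of background. Of all 2156 such progenitors within the limits, 363 were negative, a share of 16.8% (15.3 to 18.5%).

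Within progenitors the differences were much smaller. Matching kept 261 negative and 1044 called progenitors, and the matched means were 20249.6 and 20733.8 UMIs. It left out 102 negative ones with a median of 14102.5 UMIs, against 19664 in those kept, so the deeper negative progenitors carry this comparison. Of 2713 genes tested, 7 were higher (0.258%) and 12 lower (0.442%). These counts moved with the hashtags in the comparison, to 15 and 26 without hashtag 0255, to 11 higher without 0254 and to 7 lower without 0253. Leaving out a hashtag also changes the rule, since its cells no longer count in the range, and changes the matching. Without 0255 the matching kept 325 negative progenitors, against 261. Of the 96 genes higher over all barcodes 4 were higher again here, and of the 121 lower genes, of which 74 reached 50 CPM, 7 were lower again. The median log2 ratio of the former went from 0.56 to 0.10 and of the latter from -0.49 to -0.10. CD34 and GATA2 chose the barcodes and are given as description only: CD34 was at 239 CPM against 189 to 231 CPM and GATA2 at 308 CPM against 233 to 274 CPM. SPINK2, under 50 CPM, was at 27.8 CPM, within the hashtags (23.2 to 49.5 CPM, log2 ratio -0.42).

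B2M in negative progenitors was at 840.4 CPM (816 to 865) and in called progenitors at 863, 922, 974 and 922.5 CPM, a log2 ratio of -0.13 (-0.18 to -0.08). The lowest hashtag fell inside the counting interval of the negative barcodes. ATP1B3 was at 169 CPM (158 to 180) against 164, 177, 167.5 and 174 CPM, inside the range of the hashtags, with a log2 ratio of -0.02 (-0.12 to 0.09). HLA-B, at 33.9 CPM against 36.3, 47.2, 51.8 and 51.5 CPM, had a log2 ratio of -0.46 (-0.70 to -0.23) but was under 50 CPM. HLA-C (-0.13) and HLA-E (-0.09) lay within or next to the hashtags. The 3 summed to 113 CPM against 127 to 134 CPM. The 10 class II genes summed to 221 CPM against 232 to 346 CPM. Macrophage markers summed to 14.4 CPM, inside the hashtags' 11.2 to 51.0 CPM.

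The lower genes in progenitors came from several lineages. HBD, the delta globin, was at 75.9 CPM against 237, 298, 141 and 94.5 CPM (log2 ratio -1.34), with 68.1% of its UMIs in 5 barcodes. PLEK, pleckstrin of platelets and myeloid cells, was at 56.2 CPM against 168, 133, 69.4 and 57.4 CPM (-0.93). In both genes hashtags 0252 and 0253 were well above 0254 and 0255, and the negative progenitors lay close to the lowest hashtag. MPO, the myeloperoxidase of neutrophil granules, was at 127 CPM against 145 to 262 CPM (-0.60), and BLVRB, a heme pathway enzyme of red cells, at 67.0 CPM against 85.7 to 129 CPM (-0.69). BEX1 (-0.55), IFITM3 (-0.49), an interferon-induced membrane protein, LIMS1 (-0.46), MEF2C (-0.45), RAB27B (-0.43) and UBE2C (-0.39) were also lower. Summed erythroid markers were at 301 CPM against 383 to 784 CPM. The neutrophil markers did not all go the way of MPO. PRTN3 (-0.34) and AZU1 (0.15) lay within the hashtags. CTSG, at 11.6 CPM, lay above them (5.35 to 11.1 CPM, log2 ratio 0.55), and ELANE, with 2 UMIs, below them. AZU1, CTSG and ELANE were under 50 CPM. The 5 neutrophil markers summed to 269 CPM against 276 to 490 CPM.

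Among the genes higher in progenitors were CLC, CSF2RB, SOX4, RNF168, BCL11A and PRRC2B. CSF2RB, the shared beta chain of the receptors for IL-3, IL-5 and GM-CSF, was at 70.3 CPM against 48.0, 60.9, 38.2 and 34.2 CPM (log2 ratio 0.63, 0.46 to 0.81). SOX4 was at 505 CPM against 327, 336, 386 and 416 CPM (0.46, 0.40 to 0.53). BCL11A, a repressor of fetal globin genes, was at 60.6 CPM against 36.8 to 54.0 CPM (0.40). For CLC, 81.7% of the UMIs lay in 5 barcodes. RNF168, a ubiquitin ligase of DNA repair, and PRRC2B had log2 ratios of 0.43 and 0.38, the last just past the fold.

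None of 20 general surface, 18 actin and 79 ribosomal protein genes was past the rule in progenitors. Only 0.258% of all 2713 genes tested were higher and 0.442% lower, so this says little for lists of this length. The general surface genes listed summed to 4142 CPM, inside the hashtags (4140 to 4273 CPM). The actin genes summed to 19093 CPM, below all hashtags (19913 to 20305 CPM). Of these 18, 6 lay below and 3 above all hashtags, against 551 and 604 of all 2713 genes tested. ACTB was at 3370 CPM against 3445 to 3682 CPM (-0.08). Of the 79 ribosomal protein genes, 47 lay below all 4 hashtags, against the same 551 of 2713. The sum over the 84 listed was 218003 CPM against 219187 to 224621 CPM, with a list median of -0.03. Growth genes had a median of -0.00.

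Barcodes were next ordered along the count itself, by the ratio of the highest tag to the smallest called count, at equal depth. Over all barcodes the sum of HLA-B, HLA-C and HLA-E ran from 138 CPM below a ratio of 0.8 to 148 CPM at 0.8 to 1, then to 147, 157, 192 and 521 CPM in called cells at 1 to 1.2, 1.2 to 1.6, 1.6 to 2 and over 2. The border between negative and called at a ratio of 1 showed no step in these genes: negative barcodes just below it and called cells just above it differed by less than either differed from cells over 2. B2M took the same course, at 911, 971, 997, 1007, 1051 and 1386 CPM. GATA2 ran the other way, at 299, 290, 271, 247, 152 and 48.9 CPM, and ATP1B3 stayed between 147 and 167 CPM. Class II genes were at 321, 266 and 259 CPM around the border and at 3232 CPM over 2.

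In progenitors the same order held for this sum at a smaller scale, at 115, 124, 128, 132, 148 and 173 CPM. HLA-B alone was at 28.1, 37.9, 42.9, 38.8, 49.1 and 70.9 CPM. In B2M both negative ranges, at 904 and 899 CPM, lay below the called ranges, at 956, 953, 981 and 943 CPM. Next to the border its counting intervals were 872 to 927 CPM below and 935 to 979 CPM above. Among the called ranges B2M had no steady direction. ATP1B3 varied from 150 to 169 CPM, with no steady direction. Class II genes went from 250.0 to 401 CPM, so the HLA class I gradient among progenitors ran beside a class II gradient, and their parts were not separated.

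**Figure D4:**
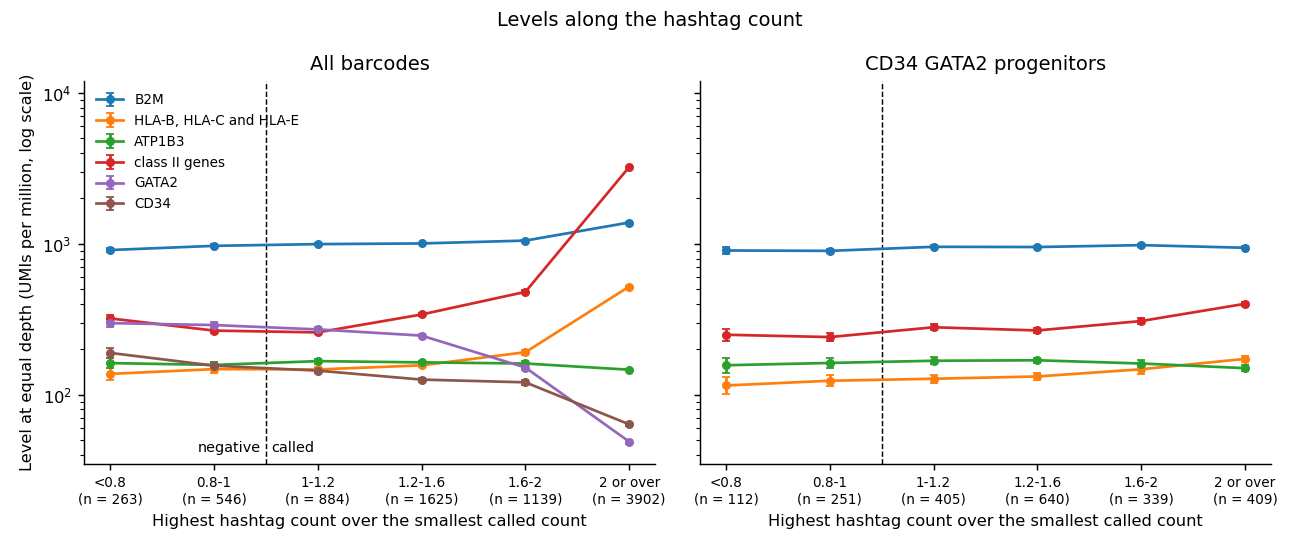
Levels at equal depth (CPM, log axis) along the ratio of the highest hashtag count to the smallest called count, over all barcodes (left) and CD34 GATA2 progenitors (right). Bars are counting intervals, n is the number of barcodes in each range, and the dashed line parts negative from called. The sum of HLA-B, HLA-C and HLA-E goes from 138 to 521 on the left and from 115 to 173 on the right, and ATP1B3 stays between 147 and 169.

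Turned around, the share of negative barcodes was read across the level of the target genes. Barcodes were split into 5 equal groups by the summed level of B2M, HLA-B, HLA-C and HLA-E within narrow ranges of depth. The share of negative barcodes was 16.3% (14.5 to 18.1%) in the lowest group, then 14.1%, 10.1% and 5.85%, and 2.10% (1.46 to 2.90%) in the highest. In progenitors it was 21.6% (17.8 to 25.8%), 18.1%, 18.1%, 15.05% and 11.4% (8.55 to 14.8%). The counting intervals of the lowest and highest group did not overlap in either set, but they hold no spread between wells or coatings. By ATP1B3 level the share stayed between 9.16% and 10.6% over all barcodes and between 15.3% and 19.0% in progenitors, without order. A level from 1 barcode carries few molecules, with a median of 0.444 ATP1B3 UMIs per 10000 in the lowest group and 3.02 in the highest, which limits what the grouping by ATP1B3 can resolve.

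**Figure D5:**
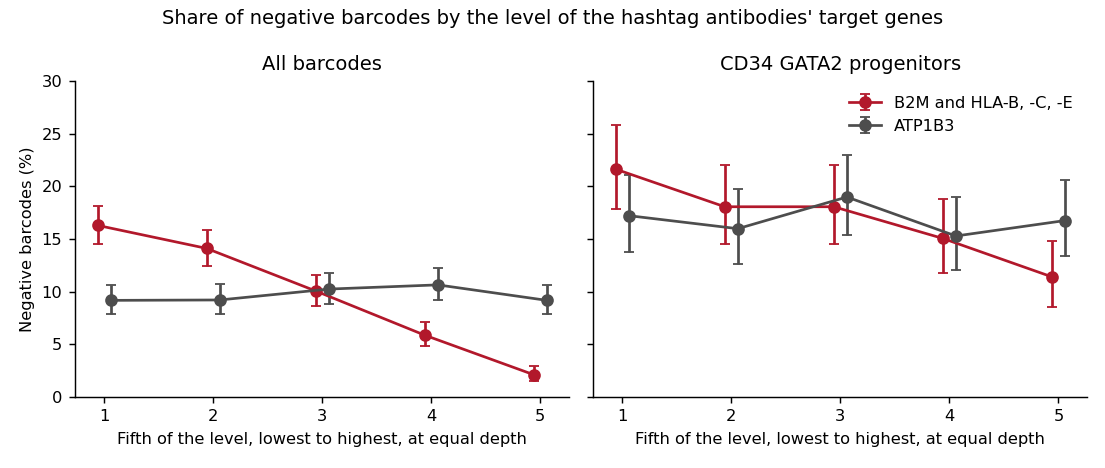
Percent of barcodes that were hashtag-negative (vertical axis) in 5 equal groups, lowest to highest, by the level of B2M with HLA-B, HLA-C and HLA-E and by that of ATP1B3, at equal depth, over all barcodes (left) and CD34 GATA2 progenitors (right). Bars are exact 95% counting intervals. The B2M and HLA series goes from 16.3% to 2.10% on the left and from 21.6% to 11.4% on the right, while the ATP1B3 series is level.

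The target genes were also compared within marker classes. In barcodes of no class, 219 matched negative barcodes had HLA-B at 34.5 CPM against 145 CPM (log2 ratio -2.08) and B2M at 902 CPM against 1150.4 CPM (-0.35), both below all hashtags. The groups were not alike there, with log2 ratios of 1.35 for GATA2 and 0.83 for CD34. The part of this in HLA-B and B2M was not tested. In the progenitor class B2M was at 890 CPM against 952 CPM (-0.10), within the hashtags, and in the eosinophil (-0.03) and erythroid (-0.01) classes likewise. It was below all hashtags in the mast and basophil class (-0.26, 38 matched negative barcodes), the neutrophil class (-0.32, 27) and the endothelial class (-0.15, 23), where the counting interval reached 0 in the last (-0.31 to 0.01). ATP1B3 lay below all hashtags in the eosinophil (155 against 180 to 199 CPM), erythroid (163 against 165 to 198 CPM) and neutrophil (163 against 167 to 211 CPM) classes. It lay above them in the mast and basophil class (196 against 155 to 192 CPM) and within them in the others. Its counting interval held 0 in all 7 classes matched, from -0.28 (-0.63 to 0.05) in the eosinophil class to 0.24 (-0.14 to 0.60) in the endothelial class. The log2 ratio of HLA-B ran from -2.08 to -0.37 over the 7 classes. Its counting interval lay below 0 in 3 of them, the no class, neutrophil (-1.71, -2.61 to -0.92) and progenitor (-0.58, -0.88 to -0.29) groups. HLA-C and HLA-E were not lower in every class. HLA-E was above all hashtags in the progenitor class (71.0 against 59.8 CPM, log2 ratio 0.25, 0.02 to 0.47), with negative ratios in the others. HLA-C had ratios of 0.14 in the eosinophil and 0.10 in the erythroid class, with intervals that held 0, and negative ratios in the others.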

How the data were processed

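One 10x Genomics 3′ v3.1 library (gene and hashtag counts) and a table of hashtag calls were read. The authors made the deposited counts with Cell Ranger 6.0.1 on hg19, per the labels. They are raw UMI counts per gene and barcode for 32738 genes, with 4 hashtag counts. The calls were used as deposited. The study used the hashtag counts to remove empty droplets and doublets, and how a call was set is not given in the sources used here. The limits on UMIs, genes and mitochondrial share follow its methods. Total gene UMIs within the limits were 12765125 over negative barcodes and 142110950 over called cells.

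Genes of the Y chromosome and XIST (109) were left out. Of the listed genes, 4 were not matched to a feature. Negative barcodes were matched by optimal assignment without replacement to 1 cell of each hashtag within 10% of total UMIs. Levels are summed UMIs per 1000000 (CPM). Their intervals are exact Poisson, those of ratios exact conditional binomial and those of shares Clopper-Pearson, all at 95% and for counting error only. PCR copies are removed by the UMI, but 1 library gives no replicate error and no p-value. Scrublet scoring (expected doublet share 6%) marked 80 of 8359 barcodes, or 0.957%. Named genes are the antibody targets and HLA class I heavy chains, in each list the members past the fold and the 3 furthest from the median in each direction, and the 10 largest ratios in each direction outside the hashtags' range, of which some are not reported here. SPINK2, LTB, PLAC8 and the comparisons of classes with ACTB were picked after their values were seen. Members and lists were chosen with earlier results of these data known. Coordinates came from the hg19 annotation, in which 31077 gene identifiers were found. The calls were tested on summed counts simulated with known folds and counting error only. The matching was not part of that test. Scripts ran in Python 3.11.15 with scanpy 1.11.5, matplotlib 3.10.9, pandas 2.3.3, scipy 1.17.1 and numpy 2.4.6.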

Additional observations from a re-analysis of the deposited data

How the results depend on the processing

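The log2 ratio of B2M was negative under all alternatives run. Counts of genes called moved most. Over all barcodes, a fold of 1.5 gave 39 higher and 64 lower genes, a minimum of 20 CPM 229 and 293, a minimum of 100 CPM 35 and 53, a mitochondrial limit of 10%, which left 34 matched negative barcodes, 477 and 289, and matching within class 44 and 51. In progenitors the same fold gave 2 and 4, 20 CPM gave 55 and 31, 100 CPM gave 2 and 6, no matching 15 and 24, the 10% limit, with 2 matched negative barcodes, 641 and 411, and thinning to 5000 UMIs 17 and 20. Negative barcodes under a ratio of 0.8 gave 60 and 20. Leaving out hashtag 0255 gave 15 and 26, with 325 negative progenitors matched. Leaving out 0254 gave 11 higher and leaving out 0253 gave 7 lower. Counts with mitochondrial UMIs left out gave 14 higher, a minimum of 1 UMI of each gene 13 higher, and matching within class, chosen after seeing the data, 4 lower.

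B2M over all barcodes was at -0.21 without matching, -0.51 at the 10% limit, -0.43 under a ratio of 0.8 and -0.20 within class. In progenitors it was at -0.037 without matching and -0.69 at the 10% limit. ATP1B3 was at -0.29 at the 10% limit over all barcodes, and in progenitors at -1.53 there and 0.0917 when thinned. The share of negative barcodes was 10.6% with no limits, 6.36% at the 10% limit and 8.80% with doublets counted as called. The causes were not tested, other than the few barcodes that the 10% limit leaves. No paired analysis was possible because there is 1 library and the result comes from no test. Free RNA and staining were not tested.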

Other observations

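Outside the limits, 191 negative barcodes were over 18% of mitochondrial UMIs, with a median of 80.8% and 3994 gene UMIs, against a median of 21.3% and 9149 gene UMIs in the 542 called barcodes over that limit. Their hashtag UMIs, at a median of 821, were close to the 788 of the negative barcodes within the limits, and 14.7% had at least 2 UMIs of CD34 and of GATA2, against 44.9%. The 2 shares were not matched in depth, as the negative barcodes within the limits had a median of 15601 gene UMIs. B2M was at 798 CPM and ATP1B3 at 135 CPM in the 191 barcodes. Mitochondrial UMIs count in the total behind these levels, so they are not compared with those within the limits.

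Genes with long transcripts stood slightly higher in negative barcodes. When the genes tested were split into 5 groups of equal size by their longest annotated transcript, the median log2 ratio over all barcodes went from -0.01 in the shortest group to 0.09 in the longest, and in progenitors from -0.05 to 0.08. These shifts are across genes of 1 library and small beside the fold of 1.3, and what moves with them was not tested.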
